A study of Homo sapiens with 2 samples.

Results

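The genes described here encode the subunits of activin, its secreted antagonists and its receptors at the cell surface. They are 10 genes, INHBA, INHBB, FST, FSTL3, ACVR1, ACVR1B, ACVR2A, ACVR2B, BAMBI and TGFBR3, out of 19775 that a probe set of the array named alone, and were taken by name, through every probe set that the platform annotation gave to a single member. That gave 23 probe sets, of which 16 were measured, meaning that they exceeded the median intensity of at least 1 array. RNA came from Ca9-22 cells, an established squamous carcinoma line of the gingiva, carrying either a RUNX2 vector or an empty vector. Both lots of cells were stably transduced and selected with blasticidin for 2 weeks, and the sources used here name neither the promoter of the vector nor whether the cells were a pool or a clone. Each group held 1 array, so no test between groups could be made, and precision is limited by that number. Differences are log2 ratios of the array labelled RUNX2 over the empty vector array, sorted by a fixed size of 2-fold.

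Activins are dimers of inhibin beta subunits and belong to the TGF-beta superfamily. The dimer binds a type II receptor, ACVR2A or ACVR2B, which phosphorylates a type I receptor, chiefly ACVR1B (also called ALK4), and that kinase in turn phosphorylates SMAD2 and SMAD3. Follistatin (FST) and follistatin-like 3 (FSTL3) wrap around the ligand outside the cell and keep it from its receptors. In stratified epithelia activin A, the dimer of INHBA products, is known for its part in wound repair, and INHBA transcripts are known to be abundant in many squamous carcinomas.

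The arrays were set to equal 2% trimmed means by multiplying the array labelled RUNX2 by 0.966, and the medians then served as floors, at 51.8 for the array labelled RUNX2 and 55.3 for the empty vector array. The probe sets of RUNX2 itself went both ways: in the array labelled RUNX2, 2 of the 3 measured were higher by 2-fold or more and 1 was lower by as much. The higher ones read 854 and 353 on the array labelled RUNX2 and 204 and 102 on the empty vector array, and the lower one read 433 on the array labelled RUNX2 and 1746 on the empty vector array, so the labels are not settled by the targeted gene and each direction rests on them. Of 23332 measured probe sets with a single gene name, 383 (1.64%) passed 2-fold upwards and 261 (1.12%) downwards, a split that became 505 and 191 when the arrays were set to equal medians. Log2 ratios of different probe sets for the same gene varied with an SD of 0.293 over 6165 genes. This is a spread within the arrays and no replicate error. Squamous epithelial markers were well above the floors, and all 9 (of 12) that a probe set named alone were measured, the desmosomal gene DSP at 9491 on the array labelled RUNX2 and 8745 on the empty vector array. Of the 9, 7 lay above 0 and 2 passed 2-fold upwards, against 1.42% of all measured genes. These were the basal keratin gene KRT14 at 1.43 and the hemidesmosome integrin gene ITGB4 at 1.35. The 4 measured probe sets of ITGB4 ran between -0.11 and 1.35, so its call depends on the probe set. EPCAM, an epithelial adhesion gene, had -0.89. Only 3 of 12 fibroblast markers, 4 of 8 leukocyte markers with a probe set and 2 of 7 endothelial markers were measured, none of them at least 2-fold apart. On the arrays labelled RUNX2 and empty vector, the levels of their brightest probe sets summed to 1885 and 2458 for fibroblast markers. The sums were 1261 and 976 for leukocyte and 111 and 144 for endothelial markers. Most of the fibroblast sum came from COL1A1, at 1553 on the array labelled RUNX2 and 1937 on the empty vector array. COL5A1 read 283 and 450 in the same order. LCP1, at 1073 and 775, made up most of the leukocyte sum. PTPRC, CD3E, CDH5, DCN and PDGFRB were among the markers below the floor on both arrays. The part of these cell types in the differences was not tested. In RNA of a whole culture, fewer cells that express a gene and less RNA per cell cannot be told apart.

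INHBA, the gene of the activin A subunit, had the widest difference of the 10 genes and was higher in the array labelled RUNX2. Its probe set 227140_at read 1230 on the array labelled RUNX2 and 252 on the empty vector array, 4.88-fold higher (log2 ratio 2.29). A separate probe set, 210511_s_at, read 579 on the array labelled RUNX2 and 134 on the empty vector array, 4.31-fold higher (2.11). The pair thus went the same way and differed from each other by 0.18 on the log2 scale, less than the SD of 0.293 between probe sets of a gene. INHBA stood 12th from the top among the log2 ratios of 12729 measured genes. Of the 1000 measured probe sets closest to 227140_at in mean level, 1 had a higher ratio than it, and 2 of the 1000 closest to 210511_s_at did. A further INHBA probe set, 204926_at, lay far below the floors, at 11.6 on the array labelled RUNX2 and 9.83 on the empty vector array, and gives no ratio. Over 11 processing settings the log2 ratio of INHBA, counted by gene, ran between 2.06 and 2.38. That of 210511_s_at ran between 1.55 and 2.20 over the 10 settings in which it was measured. The value of 1.55, with the floor at the 75th percentile, is a bound.

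INHBB encodes the beta B subunit, which makes activin B and, with the beta A subunit, activin AB. Its single probe set, 205258_at, read 44.6 on the array labelled RUNX2 and 52.8 on the empty vector array, below the floor on both. Whether INHBB differed was therefore not detectable here.

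**Figure D1:**
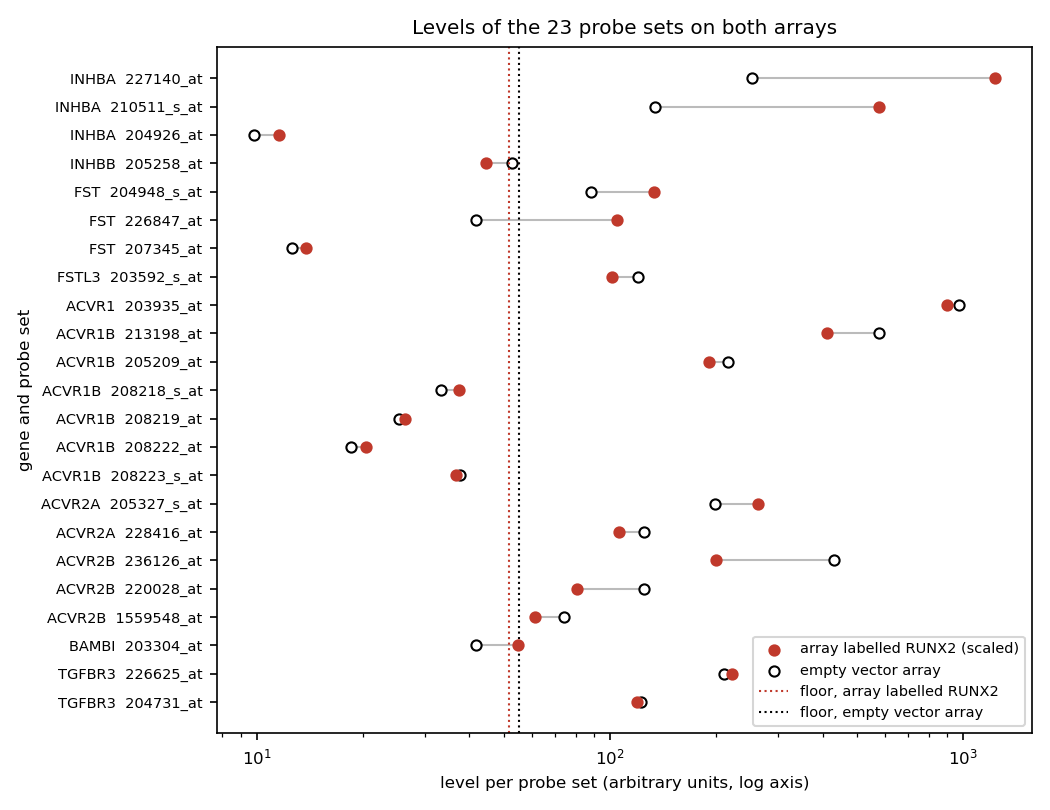
Levels of all 23 probe sets (rows) in arbitrary units on a log axis, with filled points for the array labelled RUNX2 after scaling, open points for the empty vector array and dotted lines for the floors of 51.8 and 55.3. The filled points of INHBA 227140_at (1230) and 210511_s_at (579) lie far to the right of their open points (252 and 134), that of ACVR2B 236126_at (199) lies to the left of its open point (430), and 7 probe sets have both points below the floors.

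The bases around the annotated start of INHBA are shown because it is the member with the widest difference, those of FST because it came next upwards and those of ACVR2B because it had the lowest ratio. The windows hold 250 bases before the annotated start and 50 after it, from RefSeq with build GRCh38.p14, each written 5′ to 3′ along the gene. Capitals mark matches to letters known for RUNX factors (TGTGGT or TGCGGT), SMADs (CAGAC) or AP-1 (TGANTCA), on either strand. TGACGTCA, the cAMP response element, was searched as well. INHBA lies on the minus strand (chr7:41703041-41703340), FST on the plus strand (chr5:53480379-53480678) and ACVR2B on the plus strand (chr3:38453640-38453939).
INHBA: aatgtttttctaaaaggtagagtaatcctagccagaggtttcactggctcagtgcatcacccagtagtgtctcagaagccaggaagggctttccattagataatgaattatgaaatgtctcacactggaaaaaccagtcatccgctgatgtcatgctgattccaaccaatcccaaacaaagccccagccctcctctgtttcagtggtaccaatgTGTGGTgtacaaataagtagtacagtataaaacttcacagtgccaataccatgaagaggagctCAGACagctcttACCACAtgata
FST: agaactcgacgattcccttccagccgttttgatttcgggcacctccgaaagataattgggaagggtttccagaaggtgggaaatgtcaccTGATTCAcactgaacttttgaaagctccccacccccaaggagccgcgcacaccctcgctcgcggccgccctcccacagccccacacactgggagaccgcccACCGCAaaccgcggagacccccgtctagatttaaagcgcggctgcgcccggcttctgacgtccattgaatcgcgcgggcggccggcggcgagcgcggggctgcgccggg
ACVR2B: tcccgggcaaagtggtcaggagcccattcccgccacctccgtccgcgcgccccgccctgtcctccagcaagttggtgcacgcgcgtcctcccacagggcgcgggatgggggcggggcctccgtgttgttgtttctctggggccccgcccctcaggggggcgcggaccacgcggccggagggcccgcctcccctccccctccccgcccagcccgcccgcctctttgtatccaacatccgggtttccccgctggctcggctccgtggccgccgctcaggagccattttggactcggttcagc

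The INHBA window held TGTGGT on 2 occasions, beginning 36 bases before the annotated start on the gene's strand and, on the opposite strand, at base 40 after it, as well as CAGAC at base 28. TGTGGT occurred in 13.1% of the 35116 windows of the same length in the reference. Of the 13 windows annotated to the 10 genes, 2 held it, the other belonging to ACVR1. FST had TGCGGT on the opposite strand beginning 59 bases before the start (7.29% of all windows) and TGANTCA beginning 160 bases before it (7.71%). The ACVR2B window had no match to any motif searched. CAGAC was present in 6 of the 13 windows, those of 5 of the genes, against 45.3% of all windows, and TGACGTCA in 0 of the 13, against 1.85%. A match says only that these letters are there.

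Of the antagonists, only FST had measured log2 ratios larger than the SD of 0.293 between probe sets of a gene. FST had 2 measured probe sets, both higher in the array labelled RUNX2 and neither called at 2-fold under the settings of the report. The brighter one, 204948_s_at, read 133 on the array labelled RUNX2 and 88.5 on the empty vector array, a log2 ratio of 0.59. The other, 226847_at, read 105 on the array labelled RUNX2 and 41.6 on the empty vector array, where it lay under the floor, so that it was at least 1.90-fold higher (a bound of 0.92). With a floor at the 25th percentile or no floor, 226847_at had 1.33 and passed 2-fold. It also passed with equal medians (1.02) and after loess on level (1.03). Of the 1000 measured probe sets closest to 204948_s_at in level, 74 had a higher ratio, and 15 of the 1000 closest to 226847_at had a ratio above its bound. The FST probe set 207345_at, at 13.8 on the array labelled RUNX2 and 12.6 on the empty vector array, gives no ratio. FSTL3, the follistatin-like antagonist that lacks the heparin-binding part of follistatin, read 102 on the array labelled RUNX2 and 120 on the empty vector array, a log2 ratio of -0.24 that is smaller than the SD of 0.293 between probe sets of a gene.

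The type I receptors among the members, ACVR1 and ACVR1B, lay within 2-fold in their measured probe sets. ACVR1 (ALK2), a receptor serine/threonine kinase that mostly serves bone morphogenetic proteins and forms complexes with activin that do not signal through SMAD2, read 898 on the array labelled RUNX2 and 975 on the empty vector array (log2 ratio -0.12). ACVR1B, the main activin type I receptor, had 6 probe sets, of which 2 were measured. Its brighter one, 213198_at, read 411 on the array labelled RUNX2 and 576 on the empty vector array, 1.40-fold lower (-0.49), and 205209_at read 191 on the array labelled RUNX2 and 215 on the empty vector array, 1.13-fold lower (-0.17). Both lay on the lower side under every processing setting in which they were measured, and 103 of the 1000 probe sets nearest to 213198_at in level had a lower ratio. The remaining 4 ACVR1B probe sets were under the floors, between 20.4 and 37.4 on the array labelled RUNX2 and between 18.5 and 37.6 on the empty vector array.

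Among the type II receptors, ACVR2B was lower in the array labelled RUNX2 in all 3 of its probe sets. The brightest, 236126_at, read 199 on the array labelled RUNX2 and 430 on the empty vector array, 2.16-fold lower (log2 ratio -1.11). The next, 220028_at, read 80.5 on the array labelled RUNX2 and 125 on the empty vector array, 1.55-fold lower (-0.63), and 1559548_at, close to the floors, read 61.2 on the array labelled RUNX2 and 74.3 on the empty vector array, 1.21-fold lower (-0.28). The same direction thus came with different sizes, 0.83 apart on the log2 scale from the widest to the narrowest, and just 1 of the 3 passed 2-fold. ACVR2B stood 132nd from the bottom among the 12729 genes, and 10 of the 1000 probe sets closest to 236126_at in level had a lower ratio. With the mean over probe sets the log2 ratio was -0.67 and with the floor added as an offset it was -0.95, neither past 2-fold. ACVR2A, the other type II receptor, had probe sets on opposite sides of 0. Its brighter 205327_s_at read 262 on the array labelled RUNX2 and 198 on the empty vector array, 1.32-fold higher (0.40), whereas 228416_at read 106 on the array labelled RUNX2 and 125 on the empty vector array, 1.17-fold lower (-0.23). The direction of ACVR2A therefore depends on the probe set, and without probe sets whose ID ends in _s_at or _x_at its log2 ratio turned to -0.23.

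Over both receptor types, 7 of 8 measured probe sets lay below 0 and 205327_s_at of ACVR2A above it, with a median log2 ratio of -0.25, against -0.04 over all 23332 measured probe sets, of which 54.3% lay below 0. The same 7 stayed below 0 under each processing setting in which they were measured, while the share of all probe sets below 0 ran between 43.2% and 60.4%. With the floor at the 25th percentile or no floor, 4 more ACVR1B probe sets were measured, of which 3 lay above 0, so that 8 of 12 receptor probe sets (66.7%) lay below 0, against 59.0% and 60.4% of all probe sets. Probe sets of 1 gene are no replicates of each other, and 3 of the 7 belong to ACVR2B.

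**Figure D2:**
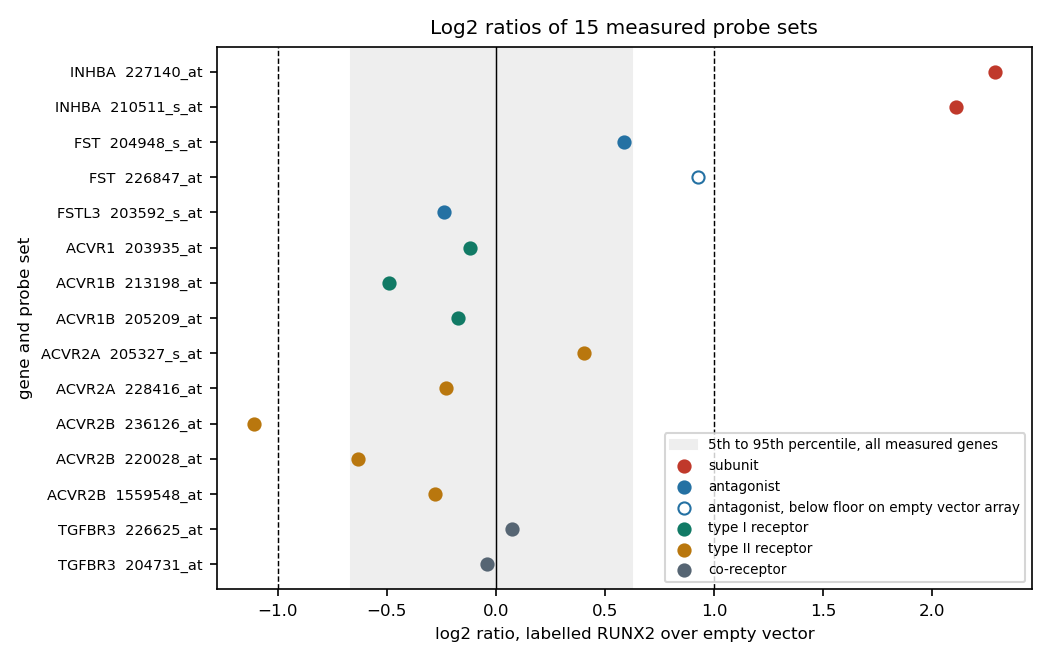
Log2 ratios (labelled RUNX2 over empty vector) of 15 of the 16 measured probe sets, without BAMBI, coloured by role, with dashed lines at 2-fold and a band from the 5th to the 95th percentile of all measured genes (-0.67 to 0.62). Both INHBA points (2.29 and 2.11) lie right of the dashed line, ACVR2B 236126_at (-1.11) left of it, and the open FST point (a bound of 0.92) between the band and the line.

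Of the membrane proteins that modulate the receptors, TGFBR3 did not differ by 2-fold, and BAMBI lay too near the floors to tell. BAMBI, a pseudoreceptor with no kinase domain that dampens signalling of TGF-beta family receptors, read 55.0 on the array labelled RUNX2, just over the floor, and 41.8 on the empty vector array, under it. A fold against the floor would be under 1 and is not given, and with no floor the log2 ratio was 0.39. TGFBR3 (betaglycan), a co-receptor that presents TGF-beta2 and lets inhibin compete with activin for type II receptors, read 222 on the array labelled RUNX2 and 211 on the empty vector array with 226625_at (log2 ratio 0.07). Its other probe set, 204731_at, read 119 on the array labelled RUNX2 and 122 on the empty vector array (-0.04), a sign that turned to above 0 with no factor (0.01), with equal medians (0.05) and, by 0.00014, after loess on level. Both TGFBR3 values are small beside the SD of 0.293 between probe sets of a gene.

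Counted by probe set, 2 of the 16 measured passed 2-fold upwards, both of INHBA, and 1 passed it downwards, of ACVR2B, against 1.64% and 1.12% of all measured probe sets. Counted by gene, through the brightest measured probe set, 1 of 9 passed 2-fold upwards and 1 of 9 downwards, against 1.42% and 1.47% of all 12729 measured genes. INHBB was not measured, and the other 7 had no 2-fold call, although the value of BAMBI rests on the floor. Among the 8 genes above the floor on both arrays, 4 lay above 0 (INHBA, FST, ACVR2A and TGFBR3) and 4 below (FSTL3, ACVR1, ACVR1B and ACVR2B). Their median log2 ratio was -0.02, against -0.05 over the 12017 genes above the floor on both arrays, and the counts past 2-fold rest on INHBA and ACVR2B. ACVR2A turned to below 0 without _s_at and _x_at probe sets, as given above.

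**Figure D3:**
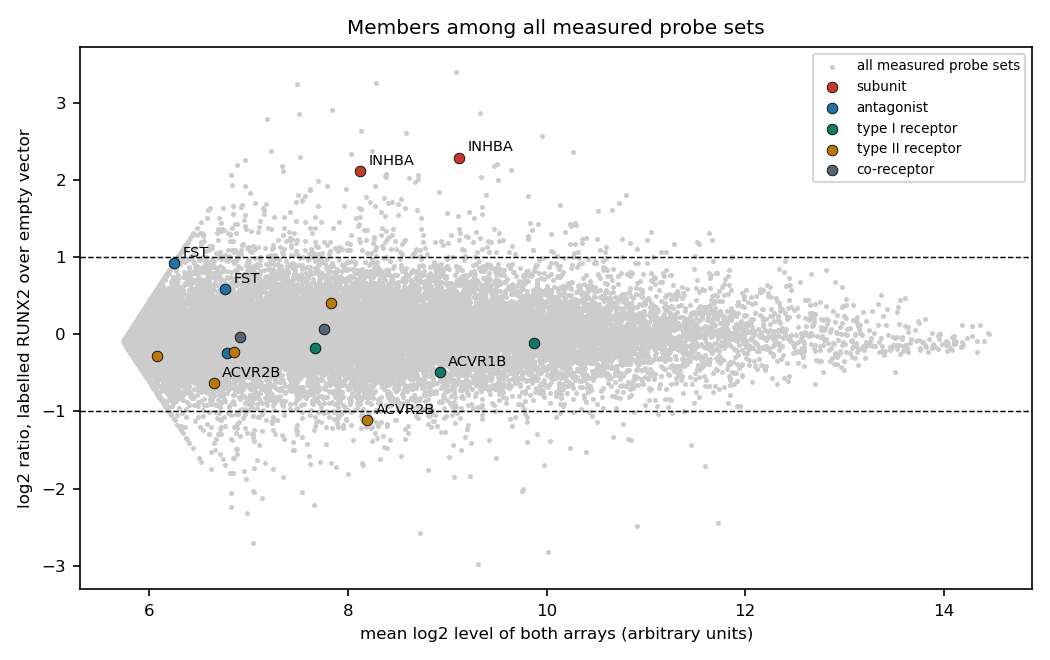
Log2 ratio (labelled RUNX2 over empty vector) against mean log2 level for all 23332 measured probe sets in grey and 15 of the members' in colour by role, with dashed lines at 2-fold. The INHBA points (2.29 and 2.11) lie at the upper edge of the grey cloud at their level, ACVR2B 236126_at (-1.11) lies below the lower dashed line, and the receptors ACVR1 and ACVR1B lie inside the cloud.

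**Figure D4:**
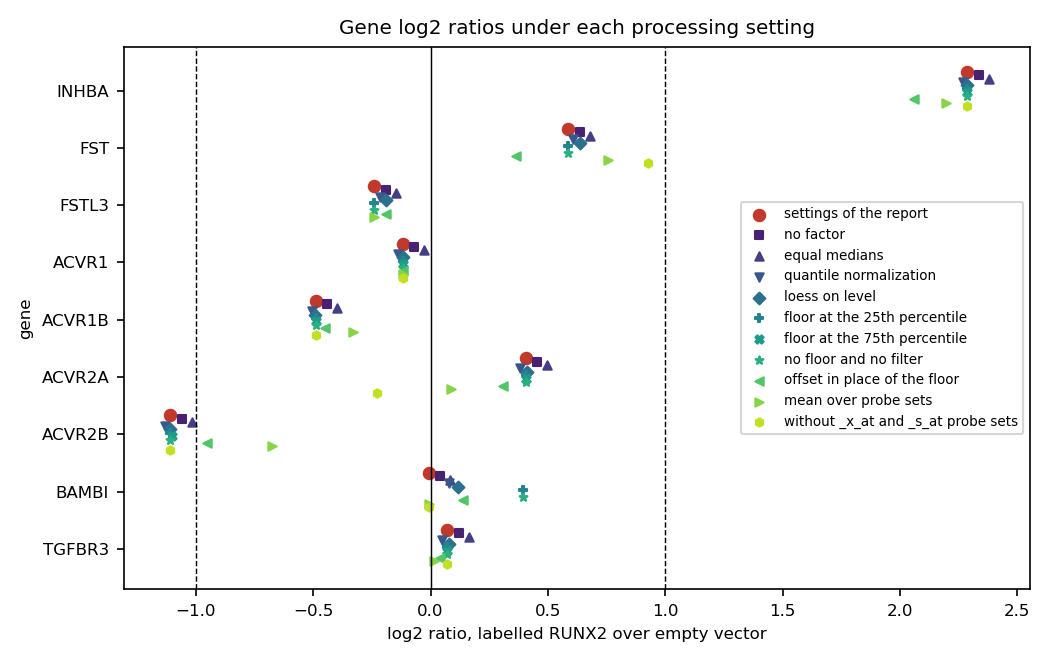
Log2 ratio of each of 9 genes (rows) under the settings of the report (large red points) and under each alternative (other markers), with dashed lines at 2-fold, where BAMBI points near 0 are values against a floor. INHBA stays between 2.06 and 2.38, ACVR2B runs between -1.13 and -0.67, and ACVR2A lies on both sides of 0. INHBB, below the floor on both arrays in the settings of the report, is not drawn.

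Other genes of the activin pathway, such as further subunits, ligands of the same receptors, convertases, SMADs and their regulators, were mostly within 2-fold. Of 38 listed genes 34 were named alone by a probe set and 27 were measured. Of these, 0 passed 2-fold upwards and 1 passed it downwards, against 1.42% and 1.47% of all measured genes. Their median log2 ratio was -0.09, against -0.06 over all measured genes, with 10 above 0 and 17 below. The gene past 2-fold was SMAD3, which carries the activin signal to the nucleus. Its brightest probe set read 614 on the array labelled RUNX2 and 1501 on the empty vector array, 2.45-fold lower (-1.29), and its other 3 measured probe sets had -0.70, -0.45 and a bound of -0.30, so that the mean over its probe sets (-0.69) did not pass 2-fold. The highest was SMAD7, an inhibitory SMAD that blocks type I receptors, at 362 on the array labelled RUNX2 and 244 on the empty vector array (0.57). The inhibin alpha gene INHA and the related genes INHBE, MSTN, GDF3, LEFTY1, CFC1 and IGSF1 were below the floor on both arrays.

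The genes next to the members in the signalling chain are given here as well, chosen after their values were seen. ACVR1C (ALK7), a type I receptor for activin B and nodal, read 256 on the array labelled RUNX2 and 461 on the empty vector array, 1.80-fold lower (-0.85), with -0.86 in its other probe set. INHBC, the beta C subunit gene, read 246 on the array labelled RUNX2 and 172 on the empty vector array (0.51). Both probe sets of ACVR1C thus lay on the lower side, within 2-fold. The probe sets of SMAD2 ran between -0.28 and 0.30 and those of SMAD4, the shared SMAD, between -0.51 and 0.10, on both sides of 0. The TGF-beta receptors TGFBR1 and TGFBR2 had -0.21 and 0.45. FURIN, a convertase that can cleave activin precursors, read 97.2 on the array labelled RUNX2 and 103 on the empty vector array (-0.08, and 0.01 with equal medians).

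Genes known to respond to activin or TGF-beta went both ways. The list was not divided by the direction in which each gene is known to respond. Of 24 listed genes 20 were named alone by a probe set and 19 were measured, of which 3 passed 2-fold upwards and 2 downwards, against 1.42% and 1.47% of all measured genes. Their median log2 ratio was -0.01, against -0.06 over all measured genes. ID2, whose product holds helix-loop-helix factors off DNA and whose gene is best known as a target of bone morphogenetic proteins, was the highest at 1.97. CCN2, a matricellular growth factor gene, had 1.65 and THBS1, thrombospondin 1, had 1.05, with 1.21 and 0.67 in its other measured probe sets. THBS1 was no longer past 2-fold with the mean over probe sets or with the floor added as an offset (0.90 at the lowest), where 2 response genes passed upwards. PMEPA1, a feedback inhibitor that binds SMAD2 and SMAD3, was the lowest. It read 1709 on the array labelled RUNX2 and 4618 on the empty vector array (-1.43), with -0.998 and -0.96 in its other probe sets. CDKN2B, a cell cycle inhibitor induced by TGF-beta, had -1.23. CDKN1A, COL4A1 and TGFBI, named after their values were seen, had 0.30, -0.50 and -0.10.

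**Figure D5:**
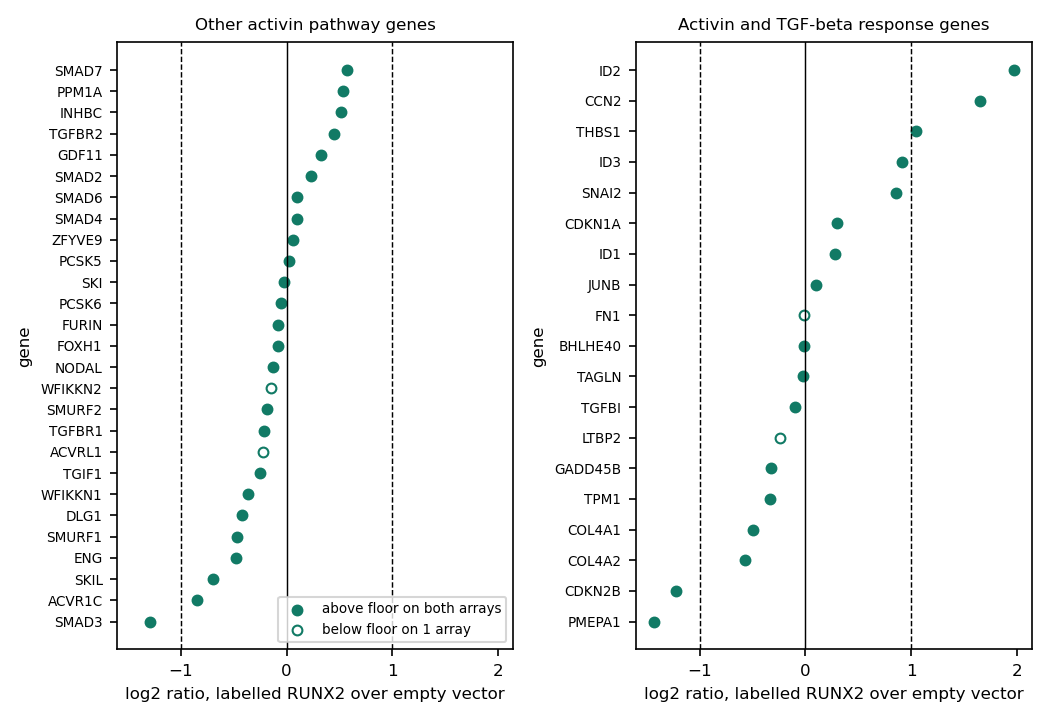
Log2 ratios (labelled RUNX2 over empty vector) of the 27 measured other activin pathway genes on the left and the 19 measured response genes on the right, sorted within each panel, with dashed lines at 2-fold and open points for genes below the floor on 1 array. SMAD3 (-1.29) is the point past a dashed line on the left, while on the right ID2 (1.97), CCN2 (1.65) and THBS1 (1.05) lie past the upper line and CDKN2B (-1.23) and PMEPA1 (-1.43) past the lower one.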

How the data were processed

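Biotinylated cRNA from 6 ug of total RNA was hybridised to Affymetrix human arrays, per the labels' protocols. What the authors deposited is an intensity for every probe set on each array, linear and in arbitrary units. The submitters' processing notes name MAS5. Version, scaling target, aligner and build are not given in the sources used here, and 1447 probe sets had equal deposited values on both arrays. Over 12 classes of mean level, the SD of the log2 ratio was 0.206 in the dimmest class and 0.473 in the widest, whereas plain MAS5 signals usually vary most at dim probe sets, so how the deposited intensities were summarised and scaled is uncertain. Samples were grouped by their titles.

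Of 54675 probe sets, 62 controls were left out. Both arrays were used, scaled to equal 2% trimmed means. Values below an array's median were raised to it, giving a bound. Genes were named where the platform annotation gave 1 symbol (41091 probe sets, 41037 of them updated by Entrez ID from RefSeq, GRCh38.p14). 1801 probe sets had several symbols and 11721 none. A gene was represented by its brightest measured probe set (mean log2 level). With 1 array per group there is no test, and calls are at 2-fold. Probe sets near in level are the 1000 closest in mean log2 level.

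The members, the lists (other activin pathway genes, response genes, and markers of squamous epithelium, fibroblasts, leukocytes and endothelium) and the alternatives were chosen with earlier results of these data known. All members are named. The text gives the levels of every probe set, as a range for those of ACVR1B under the floors. Of the other 2 gene lists, those past 2-fold and the highest and lowest are named, and genes named after their values were seen are marked so in the text. Alternatives were no factor, equal medians, quantile normalization, loess (span 0.4), a floor at the 25th or at the 75th percentile, omitting the floor, adding it as an offset, thresholds of 1.5-fold and 3-fold, the mean over probe sets, and leaving out _x_at and _s_at probe sets. The scripts were tested on simulated data. Python 3.11.15, numpy 2.4.6, pandas 2.3.3 and statsmodels 0.14.6 were used.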

Additional observations from a re-analysis of the deposited data

How the results depend on the processing

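Counted by gene, INHBA kept its 2-fold call under each alternative tried, between 2.06 and 2.38 on the log2 scale. Its probe set 210511_s_at ran between 1.55 and 2.20 where it was measured. Neither INHBA nor ACVR2B changed sign. The lower call of ACVR2B was lost with the floor as an added offset, where 0 member probe sets and 0 member genes were at least 2-fold lower, and with the mean over probe sets (0 genes), which averages in its weaker probe sets. That mean also left 0 other activin pathway genes lower. With either, THBS1 fell under 2-fold, so that 2 response genes were higher, and with equal medians 4 were. At 1.5-fold, 7.08% of all measured probe sets were higher and 6.09% lower. Of the members, 4 probe sets and 2 genes were higher and 2 probe sets were lower at that threshold. Of the lists, 3 other activin pathway genes were lower and 5 response genes were higher. At 3-fold, 0 member probe sets, 0 member genes, 0 other activin pathway genes and 0 response genes were lower. The share of all measured probe sets lower at 3-fold was 0.20%. Without _x_at and _s_at probe sets, 1 member probe set and 1 response gene were higher, since 210511_s_at of INHBA and the measured probe sets of ID2 and THBS1 were left out. Of all measured probe sets, 189 (1.49%) were higher and 106 (0.84%) lower with the floor at the 75th percentile, where fewer were measured. With an offset, 202 (0.87%) were higher and 126 (0.54%) lower. At 1.5-fold the counts were 1651 (7.08%) and 1421 (6.09%), and at 3-fold 83 (0.36%) and 47 (0.20%). Without _x_at and _s_at probe sets, which also left fewer, 238 (1.66%) were higher. With the floor at the 25th percentile or no floor, INHBB was measured (-0.24) and BAMBI had 0.39. FST had 0.92, a bound, without _s_at probe sets. No paired analysis was possible because each group held 1 array. Levels near the floors limit INHBB, BAMBI and FST 226847_at, whose ratios rest on the floor.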
